A study of Mus musculus with 4 samples.

Results

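Integrins and laminins were compared between the dorsal and ventral sides of the mouse tracheoesophageal anlagen. The members were the probe sets whose only gene symbol in the platform annotation is that of an integrin α or β chain or of a laminin α, β or γ chain, as the form of the symbol decides. There were 76 such probe sets among 45101, and they measured 35 of the 18194 named genes, 25 for integrins and 10 for laminins. The samples were the dorsal or the ventral portion of the anlagen of BALB/c embryos at E9.75, with no transgene or treatment in their labels and with 2 biological replicates, each on its own Affymetrix array, for either side. At this stage the foregut is a single tube with the lung bud as a ventral swelling, and each side was cut by hand, so that epithelium, mesenchyme and any adjoining tissue were measured together. The labels do not say how many embryos or litters a replicate holds, and the p-values then measure only the spread between these arrays. Values are RMA values on the log2 scale, and a difference is the dorsal minus the ventral mean unless another order is given. In such bulk samples, fewer cells of a type and less RNA per cell cannot be told apart.

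A laminin is a secreted heterotrimer of an α, a β and a γ chain, and the trimers assemble into the sheet on which the basement membrane is built. The α chain carries the end of the molecule that cells bind, so it largely sets which receptors a laminin engages. Integrins are transmembrane receptors made of an α and a β chain. Those with the α chains encoded by *Itga3*, *Itga6* and *Itga7* are the main integrin receptors for laminins, whereas others bind collagens, fibronectin or ligands with the tripeptide RGD. Through talin, kindlin and integrin-linked kinase they connect the matrix to the actin cytoskeleton. In the foregut a basement membrane lies between the epithelial tube and the mesenchyme, and its laminins are made by both tissues.

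For a gene with several probe sets, the one with the highest mean was kept, and a gene was tested with limma if it exceeded the 40th percentile of all values of the array on at least 2 arrays. Of the 35 genes, 29 were tested, comprising 19 integrins and all 10 laminins. At an adjusted p under 0.05, 3 members were higher on the dorsal side, namely *Itga4*, *Itga8* and *Lama1*, and 3 were higher on the ventral side, namely *Itgb3*, *Lama2* and *Lama3*. These 6 are 20.7% of the tested members, where 8.88% of all 13139 tested genes passed, 4.79% in the dorsal and 4.09% in the ventral direction. The arrays of the sides did not overlap for 20 of the 29 members, which is 69% beside 50.9% of all tested genes. The median difference was -0.08 for the 19 integrins and -0.24 for the 10 laminins, and that of all tested genes was 0.07.

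The arrays themselves were not equally alike. The dorsal arrays differed by a median of 0.08 over all tested genes and the ventral arrays by 0.26, and the upper quartile was 7.75 for ventral replicate 2 and 7.995 to 8.02 for the others. The poly-A spike controls read higher for number 2 than for number 1, by 1.94 dorsally and 1.63 ventrally, so the differences within each number are given below for the members that passed. Markers of adjoining tissues also differed between the sides. All 10 tested heart muscle genes were higher ventrally, and the mean level of that list was 6.06 and 6.08 dorsally, against 9.76 and 9.47 ventrally. Of 6 tested neural crest genes 5 were higher dorsally and *Ednrb* ventrally, and of 5 mesothelial genes 3 were higher dorsally and *Tcf21* ventrally. Of 10 foregut epithelial genes 4 were higher ventrally, with a mean level of the list of 9.32 and 9.27 dorsally and 9.91 and 9.64 ventrally. Of 9 foregut mesenchymal genes 2 were higher dorsally and 4 ventrally. Of 4 liver genes 3 were higher ventrally, and of 5 neural tube and neuron genes 4, of 4 paraxial mesoderm genes 2 and of 4 erythroid genes 2 were higher dorsally. Among these markers, *Foxd3*, *Wt1* and *Neurod1* lay below the 40th percentile on both ventral arrays, and *Myh6* and *Ryr2* on both dorsal arrays. They entered the test only through the side where they are high. None of 8 endothelial genes passed the test. The part that these tissues have in the differences of integrins and laminins was not tested.

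Promoter sequences of members that passed the test are shown so that the dorsal and ventral genes can be set side by side. RefSeq's table for GRCm38.p6 held the bases from 250 before to 50 after an annotated transcript start for 3 of the 6 genes that passed, *Itga4*, *Itga8* and *Lama2*. Capitals mark the GC box GGGCGG and the E-box CAGCTG, each searched on both strands.

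Itga4: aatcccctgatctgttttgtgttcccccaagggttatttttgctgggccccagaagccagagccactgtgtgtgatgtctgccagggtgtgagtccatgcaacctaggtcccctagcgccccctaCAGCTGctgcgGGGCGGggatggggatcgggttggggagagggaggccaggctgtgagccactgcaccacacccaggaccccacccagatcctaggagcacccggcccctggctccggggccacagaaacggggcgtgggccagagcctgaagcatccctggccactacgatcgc

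Itga8: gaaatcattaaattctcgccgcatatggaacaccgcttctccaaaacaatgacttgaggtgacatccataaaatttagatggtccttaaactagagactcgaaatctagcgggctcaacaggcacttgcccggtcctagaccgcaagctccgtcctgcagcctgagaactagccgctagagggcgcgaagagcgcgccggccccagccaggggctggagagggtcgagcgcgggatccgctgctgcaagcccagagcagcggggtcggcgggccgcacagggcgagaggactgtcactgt

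Lama2: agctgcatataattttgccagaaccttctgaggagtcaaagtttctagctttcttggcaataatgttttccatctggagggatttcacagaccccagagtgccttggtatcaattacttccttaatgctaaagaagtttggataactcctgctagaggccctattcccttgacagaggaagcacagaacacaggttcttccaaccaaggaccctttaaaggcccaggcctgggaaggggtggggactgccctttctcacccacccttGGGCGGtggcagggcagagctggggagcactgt

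The *Itga4* window is chr2:79255176-79255475 on the plus strand, that of *Itga8* is chr2:12301895-12302194 on the minus strand, and that of *Lama2* is chr10:27616893-27617192 on the minus strand. The *Itga4* window held 1 GC box and 1 E-box and the *Lama2* window 1 GC box, while neither motif was found in that of *Itga8*. The TATA box TATAAA was in none of the 3 windows. Among all 32851 promoters of the table, 35.7% held the GC box, 16.3% the E-box and 13.6% the TATA box, so these matches describe the windows and no more.

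Of the 5 laminin α chains, 3 passed the test, which is 60% beside 8.88% of all tested genes. *Lama2*, which encodes the chief α chain of the laminin of muscle and of many mesenchymes, was 2.26-fold higher on the ventral side. It read 6.29 on both dorsal arrays, and 7.62 and 7.31 ventrally. The dorsal arrays were nearly equal and both lay more than 1 unit below either ventral array. The difference was -1.18 (standard error 0.17, n = 2 arrays per side, limma adjusted p = 4.10e-05). Taken by replicate number, it was -1.33 for the arrays numbered 1 and -1.02 for the arrays numbered 2. *Lama2* has a single probe set here. Its call held under all 14 alternatives tried, with differences from -1.33 to -1.02. The heart muscle genes given above differed in the same direction. Over 9 foregut mesenchymal genes the median difference was -0.02, with 2 higher dorsally and 4 ventrally.

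*Lama3* encodes the α chain of an epithelial laminin that anchors stratified and glandular epithelia. It read 4.96 and 4.75 dorsally and 5.48 and 5.86 ventrally, so that the ventral arrays were both higher and the dorsal ones lay close to the 40th percentiles of 4.73. The difference was -0.82 (standard error 0.18, limma adjusted p = 0.00359), a 1.76-fold higher level ventrally, and by replicate number it was -0.53 (number 1) and -1.11 (number 2). The other *Lama3* probe set had 4.31 and 3.995 dorsally and 3.68 and 4.30 ventrally, below the 40th percentile on every array, and its difference of 0.16 had the opposite sign. The call was lost without dorsal replicate 1 (-0.92, adjusted p = 0.0529), without dorsal replicate 2 (-0.71, adjusted p = 0.288) and with the values quantile-normalized once more (-0.84, adjusted p = 0.0528). Over the alternatives in which *Lama3* was tested, the adjusted p spanned 9.43e-05 to 0.288. The epithelial genes higher ventrally were *Cldn4*, *Cldn7*, *Foxa1* and *Grhl2*, with differences from -0.77 to -0.55, and 6 of the 10 tested did not pass.

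*Lama1*, whose product is the α chain of the first laminin of the embryo and of early epithelial basement membranes, differed in the opposite direction. Its values were 8.34 and 8.41 dorsally and 7.96 and 7.65 ventrally, and the sides did not overlap. The difference was 0.57 (standard error 0.17, limma adjusted p = 0.0422), a 1.49-fold higher level dorsally, and by replicate number it was 0.38 (number 1) and 0.77 (number 2). The foregut epithelial list went the other way, with a median difference of -0.54 over 10 tested genes. The *Lama1* call lay near the threshold. It was lost without dorsal replicate 1 (0.61, adjusted p = 0.542), without dorsal replicate 2 (0.54, adjusted p = 0.728) and without ventral replicate 2 (0.41, adjusted p = 0.0527), as well as with no filter (adjusted p = 0.0815), with probe sets averaged per gene (adjusted p = 0.0513) and with every probe set tested (adjusted p = 0.101). Across alternatives its adjusted p spanned 0.0111 to 0.728.

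The remaining α chains did not pass. *Lama4*, the α chain of vascular and mesenchymal laminins, had 7.78 and 7.77 dorsally and 7.50 and 7.28 ventrally, a difference of 0.39 (95% interval 0.03 to 0.74, limma adjusted p = 0.211). *Lama5*, the widespread α chain of epithelial basement membranes, had 7.44 and 7.49 dorsally and 7.88 and 7.76 ventrally, a difference of -0.36 (95% interval -0.71 to -0.01, limma adjusted p = 0.248). A further *Lama5* probe set gave -0.32. The other *Lama4* probe set gave -0.0094 from values below the 40th percentile on every array. With probe sets averaged per gene, *Lama4* was 0.19. On the kept probe sets the arrays of the sides did not overlap in either gene, as in 50.9% of all tested genes. Without ventral replicate 1 the difference was 0.50 for *Lama4* and -0.30 for *Lama5*, and without ventral replicate 2 that of *Lama5* was -0.42.

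Because a scaling of a whole array cancels in the ratio of 2 probe sets on it, the α chains were also read as ratios within arrays, which show unequal change between the sides and not the ratio of the transcripts. The log2 ratio of *Lama2* to *Lama1* was -2.05 and -2.12 dorsally and -0.34 on both ventral arrays, a shift of 1.75. For *Lama5* to *Lama4* it was -0.34 and -0.28 dorsally and 0.38 and 0.49 ventrally, a shift of 0.75. In both cases the ventral arrays lay above the dorsal arrays by more than the arrays of a side differed. These ratios were chosen after the values were seen and were not tested.

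Of the β and γ chains, which the α chains share, 0 of 5 passed by limma, and *Lamc1* had an unadjusted p under 0.05. As 8.88% of all tested genes passed, a count of 0 of 5 says nothing particular about these chains. *Lamb1*, the common embryonic β chain, had 11.91 and 11.90 dorsally and 12.11 and 12.04 ventrally, a difference of -0.17 (95% interval -0.52 to 0.18). *Lamb2*, a β chain of muscle, nerve and kidney basement membranes, had 6.93 and 6.91 dorsally and 7.54 and 6.92 ventrally, so that its difference of -0.31 came from ventral replicate 1 and was 0.0037 without it; without ventral replicate 2 it was -0.62 and passed. *Lamb3*, the β partner of the *Lama3* product, had 5.24 and 5.40 dorsally and 5.62 and 5.15 ventrally, and the sides overlapped. *Lamc1*, the γ chain of most laminins, had 8.48 and 8.34 dorsally and 9.12 and 8.63 ventrally, a difference of -0.46 (95% interval -0.84 to -0.08, limma adjusted p = 0.155). It passed without ventral replicate 2, at -0.71. *Lamc3* had 5.15 and 5.10 dorsally and 4.61 and 5.16 ventrally, with a difference of 0.24 that was -0.04 without ventral replicate 1 and, past the threshold, 0.51 without ventral replicate 2.

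**Figure D1:**
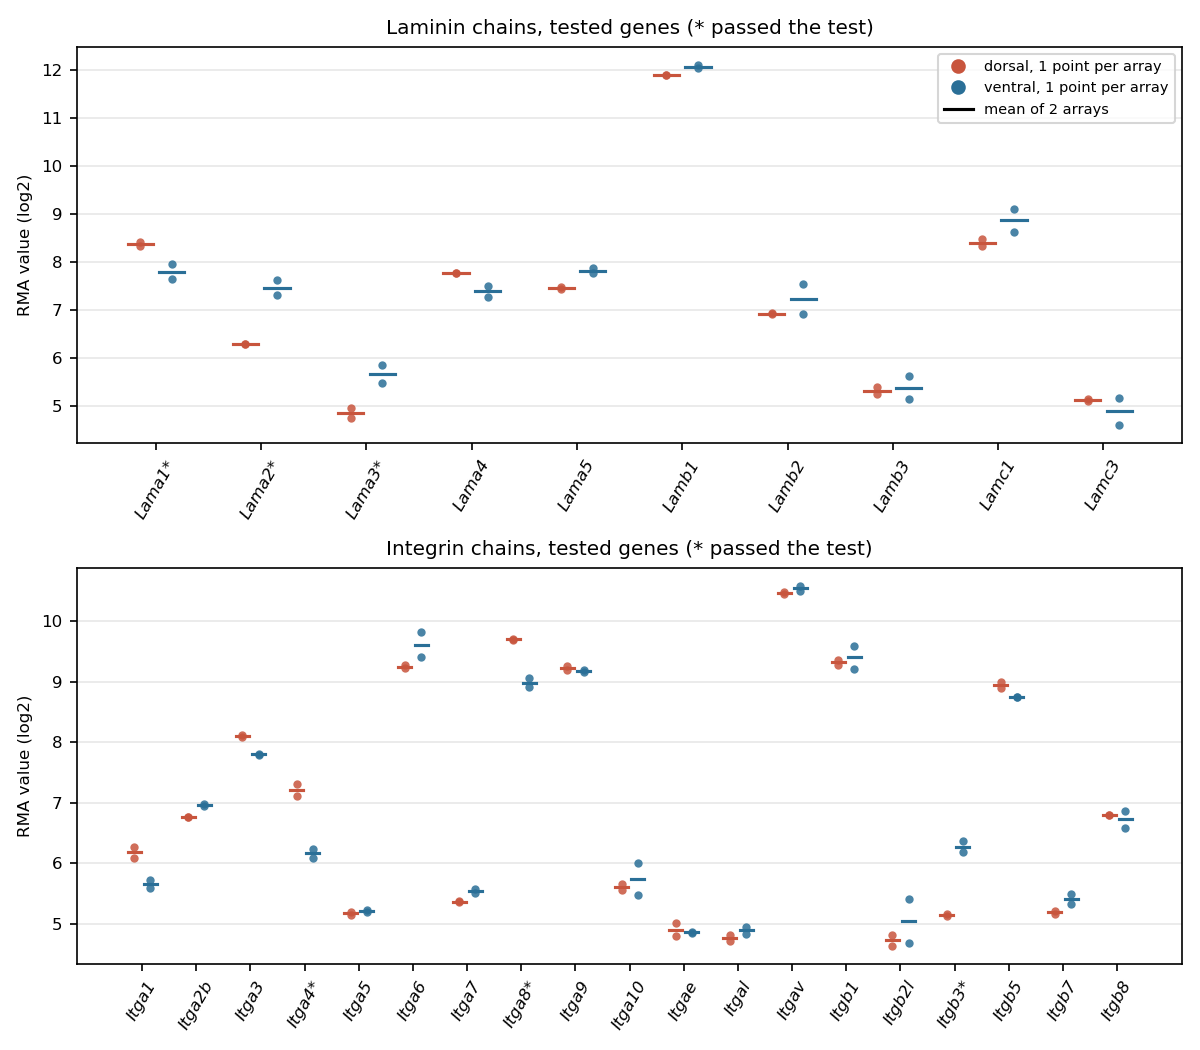
RMA values (log2, vertical axes) of the 10 tested laminin genes and the 19 tested integrin genes on the dorsal and ventral sides, each array being a point and the mean of 2 arrays a bar. The points of *Lama2*, *Lama3* and *Itgb3* lie higher ventrally and *Lama1*, *Itga4* and *Itga8* higher dorsally. Levels of different genes are not comparable, since each has its own probes.

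The laminin receptors did not pass the test in either direction. *Itga6*, which encodes the laminin receptor α chain of most epithelia, had 9.28 and 9.22 dorsally and 9.81 and 9.41 ventrally, a difference of -0.37 (95% interval -0.74 to 0.01, limma adjusted p = 0.271). Its other probe set gave -0.42. *Itga6* passed with the values quantile-normalized once more (-0.48, adjusted p = 0.0482) and without ventral replicate 2 (-0.57, adjusted p = 0.0245), and across alternatives its adjusted p spanned 0.0245 to 0.9999. *Itga3*, whose product pairs with the common β chain on epithelial cells, had 8.12 and 8.09 dorsally and 7.81 and 7.80 ventrally, a difference of 0.30 (95% interval -0.05 to 0.64, limma adjusted p = 0.357), and a further probe set gave 0.24 and the lowest one -0.03. *Itga7*, the muscle laminin receptor, had 5.37 and 5.36 dorsally and 5.51 and 5.57 ventrally, a difference of -0.17. All 3 had no overlap between the sides, as had 50.9% of all tested genes, and each interval crossed 0. Without ventral replicate 1 the difference of *Itga3* was 0.31.

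The log2 ratio of *Itga6* to *Itga3* within an array was 1.16 and 1.13 dorsally and 2.003 and 1.62 ventrally, a shift of 0.66 that was chosen after the values were seen and was not tested. *Itgb1*, the β chain that these receptors share with many others, had 9.36 and 9.28 dorsally and 9.59 and 9.21 ventrally, and its difference of -0.08 (95% interval -0.45 to 0.29) changed sign with the probe set, since the next one gave 0.08. *Itgb4*, the β chain of hemidesmosomes, exceeded the 40th percentile on ventral replicate 1 alone, at 5.10, and was not tested. Of the 4 tested receptor chains for laminins 0 passed by limma, and 0 had an unadjusted p under 0.05. Since 8.88% of all tested genes passed, a count of 0 of 4 says nothing particular about them.

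**Figure D2:**
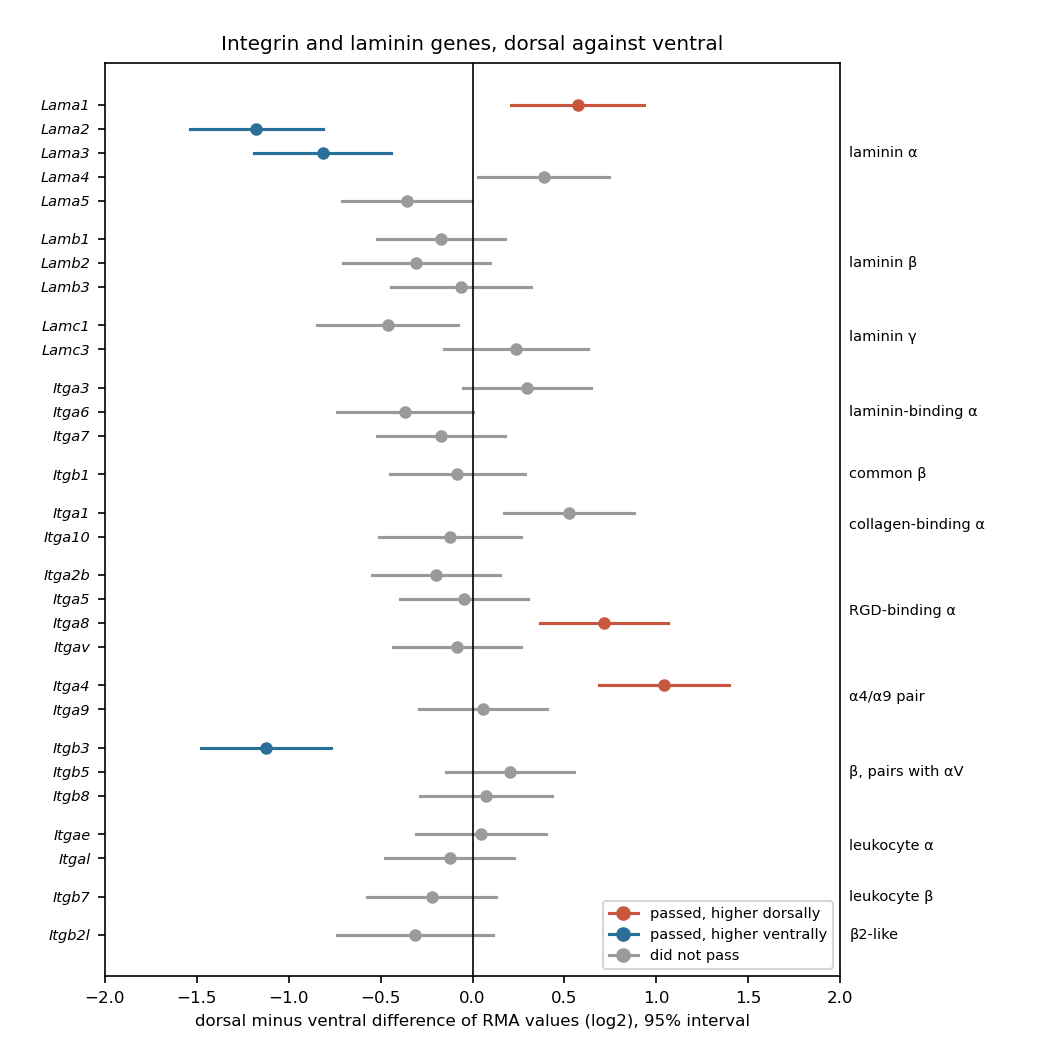
Difference in RMA value, dorsal minus ventral (log2, horizontal axis), for the 29 tested members, grouped by role, with the 95% interval from limma as a bar. Red and blue mark the 6 that passed the test at an adjusted p under 0.05, whose differences run from -1.18 for *Lama2* to 1.04 for *Itga4*, and the laminin-binding α chains lie within 0.37 of 0.

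Among the tested integrins, *Itga4* had the largest difference in the dorsal direction. Its product pairs with the common β chain to bind fibronectin and the vascular adhesion molecule VCAM1, and it is known from migrating neural crest, epicardium and blood cells. It read 7.30 and 7.10 dorsally and 6.23 and 6.09 ventrally, a 2.06-fold higher level dorsally with no overlap. The difference was 1.04 (standard error 0.17, limma adjusted p = 0.000153), and by replicate number it was 1.08 (number 1) and 1.01 (number 2). The second *Itga4* probe set had 5.46 and 5.36 dorsally and 4.31 and 4.60 ventrally, a difference of 0.95. Its ventral values lay below the 40th percentile, so it entered the test of all probe sets through its dorsal arrays alone. That it passed there (limma adjusted p = 0.00720) is therefore no independent support for the kept probe set. Another gave 0.70 from values below the 40th percentiles, and the lowest ones, also below them, gave -0.13 and 0.09. *Itga4* kept its call in the 13 alternatives in which it was tested, and with the mean of its probe sets it fell below the filter. Of the lists of tissues in which it is known, neural crest had a median difference of 1.70 over 6 tested genes, mesothelium 2.56 over 5 and erythroid cells 0.78 over 4. The other blood cell lists did not go dorsally, with -0.18 over 5 leukocyte genes and -0.0027 over 5 megakaryocyte and platelet genes. The neural crest and mesothelial medians include *Foxd3* and *Wt1*, which entered the test through their dorsal arrays alone. *Itga9*, which encodes the α chain most like it, had 9.20 and 9.25 dorsally and 9.19 and 9.15 ventrally, a difference of 0.06 (95% interval -0.29 to 0.40).

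*Itga8*, whose product is the mesenchymal receptor for nephronectin, was 1.64-fold higher dorsally. Its values were 9.69 and 9.71 dorsally and 9.06 and 8.91 ventrally, a difference of 0.72 (standard error 0.17, limma adjusted p = 0.00647), and by replicate number it was 0.63 (number 1) and 0.80 (number 2). The other probe set had 5.31 and 5.27 dorsally and 4.77 and 4.68 ventrally, a difference of 0.57 (adjusted p = 0.0723 with all probe sets tested). The call was lost without dorsal replicate 1 (0.73, adjusted p = 0.269) and without dorsal replicate 2 (0.70, adjusted p = 0.306), and across alternatives the adjusted p spanned 0.000793 to 0.306. *Npnt*, the gene of nephronectin, was likewise higher dorsally, at 9.93 and 10.01 against 9.38 and 9.23 (difference 0.66, limma adjusted p = 0.0123). *Egfl6*, which encodes a further ligand of this receptor, was higher ventrally, at 3.59 and 3.85 against 5.17 and 4.88 (difference -1.31, limma adjusted p = 1.35e-05). Its dorsal values lay below the 40th percentile, above which the ventral mean stood by 0.30. It thus entered the test through its ventral arrays alone. With the 60th percentile filter, or with either ventral array left out, this probe set fell short of the filter. Those fits therefore do not bear on its call.

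*Itgb3* encodes the β chain of the vitronectin receptor and, with the *Itga2b* product, of the platelet fibrinogen receptor. It read 5.13 and 5.17 dorsally and 6.36 and 6.19 ventrally, a 2.18-fold higher level ventrally with no overlap. The difference was -1.12 (standard error 0.17, limma adjusted p = 5.36e-05), and by replicate number it was -1.23 (number 1) and -1.02 (number 2). Its second probe set had 4.75 and 4.55 dorsally and 4.97 and 5.25 ventrally, a difference of -0.46 (adjusted p = 0.217 with all probe sets tested). The call held in the 13 alternatives in which *Itgb3* was tested, with differences from -1.21 to -0.79. The α chains that can pair with it did not pass. *Itgav* had 10.44 and 10.48 dorsally and 10.58 and 10.50 ventrally, and *Itga2b* had 6.77 and 6.76 dorsally and 6.94 and 6.98 ventrally, with differences of -0.08 and -0.20. None of 5 tested megakaryocyte and platelet genes passed (median difference -0.0027), and *Pf4*, the gene of platelet factor, had 8.37 and 8.55 dorsally and 8.56 and 8.35 ventrally.

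The other β chains that pair with the *Itgav* product did not follow *Itgb3*. *Itgb5*, a vitronectin receptor chain, had 8.90 and 8.99 dorsally and 8.74 and 8.74 ventrally, a difference of 0.21 (95% interval -0.14 to 0.55), and its further 3 probe sets gave 0.29 to 0.46, none of which passed. *Itgb8*, a chain that takes part in the activation of TGF-β, differed by 0.07 (95% interval -0.29 to 0.43), and *Itgb6* was not tested, with values of 3.80 to 3.88. *Itga5*, the α chain of the classical fibronectin receptor, had 5.20 and 5.14 dorsally and 5.23 and 5.20 ventrally, a difference of -0.04 (95% interval -0.39 to 0.30).

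Of the collagen-binding α chains, *Itga1* had 6.28 and 6.09 dorsally and 5.73 and 5.59 ventrally, a difference of 0.53 (standard error 0.17, 95% interval 0.17 to 0.88) that did not pass over all genes (limma adjusted p = 0.0605). It passed with robust eBayes (adjusted p = 0.0496) and with replicate number as block (adjusted p = 0.0320). In the other alternatives that kept every array and tested it, *Itga1* did not pass. Without ventral replicate 1 its difference was 0.60. *Itga10*, a collagen receptor chain of cartilage, differed by -0.12 with overlapping sides. *Itga2* was not tested, with values of 4.39 to 4.74.

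The integrins of white blood cells were low or did not differ beyond the threshold. *Itgam*, *Itgax* and *Itgb2* lay below the 40th percentile on every array, with values from 3.28 to 4.57, and were not tested. Of those tested, *Itgae* differed by 0.05, *Itgal* by -0.12, *Itgb7* by -0.22 and *Itgb2l*, the gene of a chain like that of *Itgb2*, by -0.32. Among 5 tested leukocyte genes, *Laptm5* was higher ventrally (-1.08, limma adjusted p = 0.00818), with 11.65 on ventral replicate 2 and 9.91 to 10.35 on the other arrays. *Itgb2l* was also highest on ventral replicate 2, at 5.41 beside 4.64 to 4.82 on the other arrays. Without ventral replicate 1 its difference was -0.68, and that of *Itgb7* was -0.30.

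**Figure D3:**
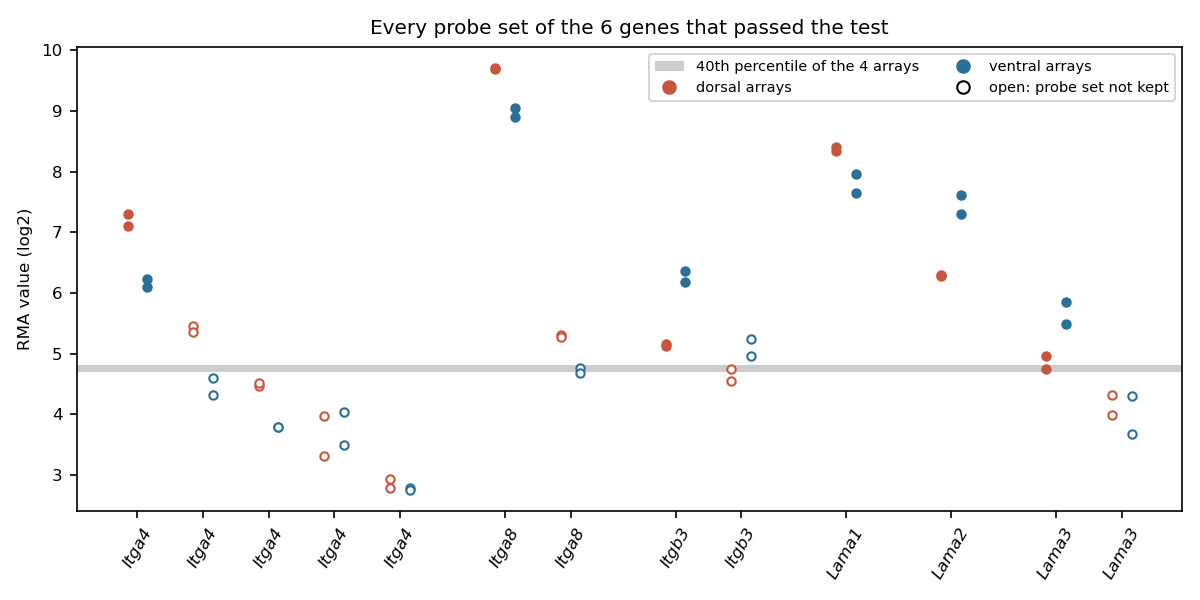
RMA values (log2, vertical axis) of every probe set of the 6 genes that passed, with 1 point per array, filled for the probe set kept for the test and open for the others. The grey band spans the 40th percentiles of the 4 arrays, 4.69 to 4.82. The probe sets of *Itga4* above or near the band, both of *Itga8* and both of *Itgb3* point the same way as the kept one, and the second of *Lama3* lies below the band with overlapping sides.

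Genes that act with integrins and laminins were read from 4 lists, in which 72 of 82 genes were tested. Of these, 11 were higher dorsally and 2 ventrally, 18.1% in all beside 8.88% of all tested genes, and the median difference was 0.17. The lists were chosen with earlier results of these data known, so these shares are no independent test of the lists. Among 13 genes of basement membrane partners, *Smoc1*, *Smoc2* and *Sparc* were higher dorsally and *Col4a5* ventrally, 30.8% of that list. *Smoc2* and *Smoc1* encode related calcium-binding matrix proteins of basement membranes. *Smoc2* had 7.61 and 7.49 dorsally and 5.50 and 5.13 ventrally, a difference of 2.23 (limma adjusted p = 4.70e-09), and *Smoc1* had 8.14 and 8.19 dorsally and 6.02 and 6.04 ventrally, a difference of 2.14 (limma adjusted p = 3.61e-09). *Sparc*, which encodes a collagen-binding matrix protein, differed by 0.60, and *Col4a5*, a collagen IV chain, by -0.74. The linkers of laminin to the collagen IV network did not pass, with *Nid1* at 0.52, *Nid2* at -0.03 and the perlecan gene *Hspg2* at -0.20.

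Of 19 tested genes of other integrin ligands, 5 were higher dorsally and *Egfl6* ventrally, which is 31.6% beside 8.88% of all tested genes. This share includes *Egfl6*, which entered the test through its ventral arrays alone. *Tgfbi*, whose product is an adhesive matrix protein induced by TGF-β, had 8.66 and 8.76 dorsally and 6.92 and 7.03 ventrally, a difference of 1.73 (limma adjusted p = 1.04e-07). *Fbln2* (1.28), *Ccn2* (1.11) and *Postn* (0.87), which encode a fibulin, a matricellular growth factor and periostin, were higher dorsally too. The ligands of the *Itga4* product did not pass, with *Fn1* at 0.28 and *Vcam1* at -0.39, nor did *Vtn*, the gene of vitronectin, at 0.37. The sign of *Vcam1* depended on the probe set, since another had 5.72 and 5.87 dorsally and 5.24 and 4.65 ventrally, a difference of 0.85. *Vcam1* was higher ventrally without ventral replicate 1 and higher dorsally without ventral replicate 2. *Postn* did not pass without dorsal replicate 2, and *Fbln2* was not called without probe sets that can match several transcripts.

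Of 25 tested adaptors and adhesion kinases, 2 were higher dorsally and 0 ventrally by limma, which is 8% beside 8.88% of all tested genes. These were *Tns3*, the gene of a tensin (0.68, adjusted p = 0.0108), and *Vcl*, that of vinculin (0.57, adjusted p = 0.0424). *Tln1*, the talin that activates integrins, differed by 0.50, the kindlin gene *Fermt2* by -0.47 and *Ilk*, the gene of integrin-linked kinase, by 0.33, and none of them passed. Of 15 further laminin receptors and integrin-associated membrane proteins the tetraspanin gene *Cd9* was higher dorsally (0.65, limma adjusted p = 0.0328), 6.67% of that list, and *Dag1*, the gene of the laminin receptor dystroglycan, differed by -0.18. *Sparc*, *Col4a5*, *Npnt*, *Tns3*, *Vcl* and *Cd9* were not called when either dorsal array was left out. *Sparc*, *Vcl* and *Cd9* were also not called with no filter, without ventral replicate 2 and with every probe set tested, nor were *Sparc* and *Cd9* with quantile normalization once more. With probe sets averaged per gene, *Fbln2*, *Npnt*, *Sparc*, *Tns3*, *Vcl* and *Cd9* were not called.

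**Figure D4:**
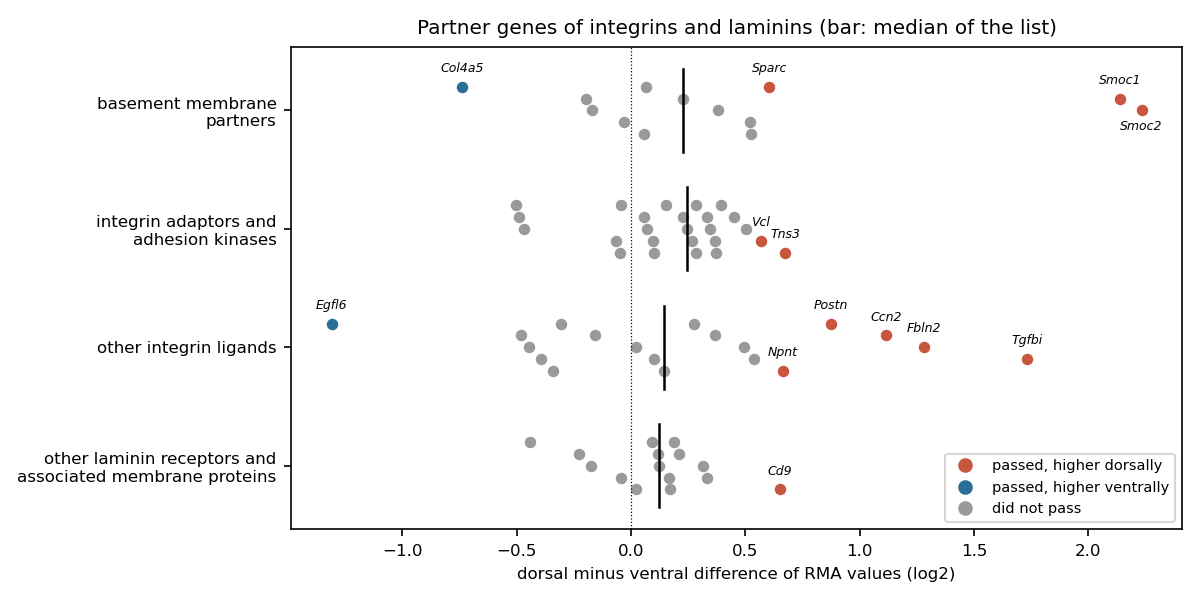
Difference in RMA value, dorsal minus ventral (log2, horizontal axis), for the 72 tested partner genes in 4 lists, each gene being a point and the list median a bar. The medians lie between 0.12 and 0.25, and the named points are the 13 genes that passed, of which *Smoc2* at 2.23 and *Egfl6* at -1.31 are the furthest from 0.

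**Figure D5:**
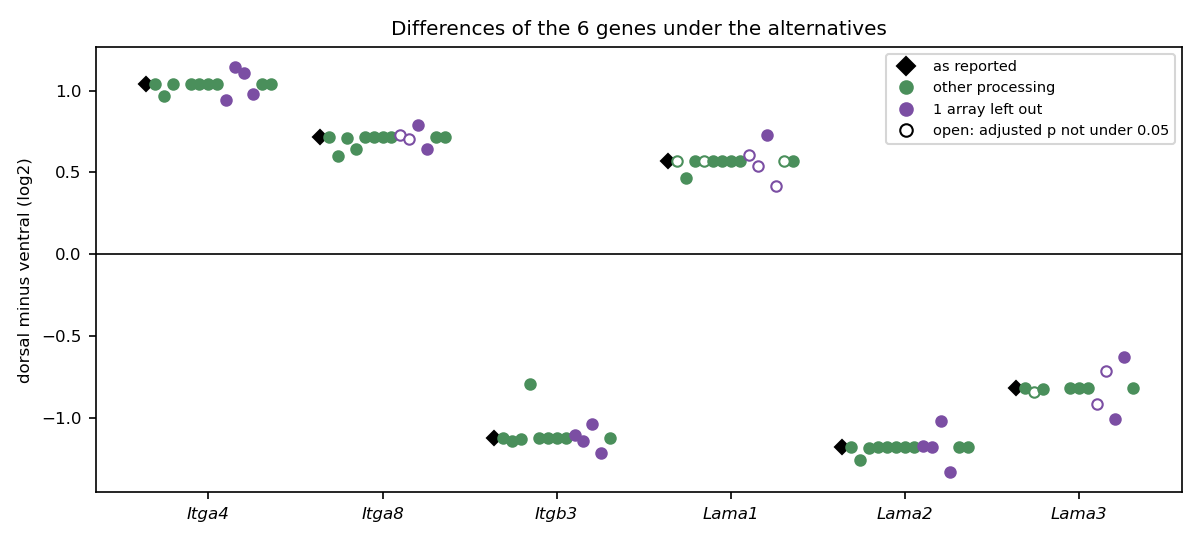
Dorsal minus ventral difference (log2, vertical axis) of the 6 members that passed, as reported and under each alternative in which the gene was tested, with open points where the adjusted p was not under 0.05. The direction was the same throughout, the call of *Lama2* held in all 14 alternatives, and *Lama1* has the most open points, at 6.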

How the data were processed

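Dorsal and ventral sides of the tracheoesophageal anlagen were each measured on 2 Affymetrix arrays from 100 ng of total RNA. The deposited log2 values were summarised by the authors with RMA, per the labels. The sources used here do not give its software or version or name the scale, and log2 was read from the range of 2.36 to 15.02. Precision is limited by there being only 4 arrays. No detection calls were used.

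Symbols came from GEO's platform annotation. Of 45101 probe sets 34958 had 1 symbol, and the identifiers of 34754 were found in RefSeq's GRCm38.p6 table. The probe set with the highest mean was kept per gene. Genes above the 40th percentile on at least 2 arrays were fitted in limma 3.58.1 (lmFit, then eBayes, R 4.3.3), with two-sided tests and without a replicate term, with Benjamini-Hochberg adjustment over all 13139 genes. The script was tested on simulated data. These gave a gene the same spread on every array, unlike the dorsal and ventral arrays here. The simulation therefore checks the script and not the calls. With 2 arrays a side, exact permutation cannot go below p = 0.333 and was not used.

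The members, the lists and the alternatives were chosen with earlier results of these data known. Every member is named, with full statistics for those that passed. Up to 4 passing genes of each partner list are named by rule, with the difference and, for some, array values and adjusted p. Genes with known ties to these, and markers, were named after their values were seen. Further probe sets are given for members where they bear on the call. Alternatives dropped the filter or raised it to the 60th percentile, repeated quantile normalization, equalised array medians, averaged the probe sets per gene, removed probe sets that can match several transcripts, used eBayes with a trend or robustly, blocked on replicate number, left out each array, with probe sets chosen anew, and, chosen after the data were seen, every probe set tested together.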

Additional observations from a re-analysis of the deposited data

How the results depend on the processing

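Over 382 values of single members under the 14 alternatives, 344 kept their direction and their side of the threshold, 11 lost the threshold, 14 gained it and 13 changed sign, none of which passed with the new sign. With probe sets averaged per gene, *Itgb1* was 0.011 and *Itgav* 0.0088. *Itgb1* was 0.077 without probe sets that can match several transcripts. With quantile normalization once more, *Itga9* was -0.053 and *Itgb8* -0.029, the median of all tested genes moved from 0.07 to -0.02, and 479 genes were higher dorsally and 635 ventrally, where 629 and 538 had been. With each array left out in turn, the members that changed sign ran from -0.39 to 0.14 (*Itga10*), -0.27 to 0.11 (*Itgb1*), -0.068 to 0.22 (*Itgb8*), -0.62 to 0.0037 (*Lamb2*), -0.30 to 0.18 (*Lamb3*), -0.041 to 0.51 (*Lamc3*) and -0.056 to 0.15 (*Itgae*). With the 60th percentile filter 0 integrins and 1 laminin were higher ventrally by limma, as *Itgb3* and *Lama3* were not tested. With quantile normalization once more 2 integrins, 1 laminin and 4 partner genes were higher ventrally, and with the eBayes trend 4 partner genes. With probe sets averaged, where *Itga4* and *Lama3* were not tested, 1 integrin, 0 laminins and 6 partner genes were higher dorsally and 1 laminin ventrally. Without probe sets that can match several transcripts, where *Lama3* was not tested, 1 laminin was higher ventrally. With no filter and with every probe set tested, 0 laminins were higher dorsally by limma. Over all tested genes, the share called was 5.49% with no filter, 6.45% with every probe set tested and 6.86% with probe sets averaged. It was 11.1% with the 60th percentile filter, 8.48% with quantile normalization once more and 9.59% with the eBayes trend. It was 9.53% without probe sets that can match several transcripts, 11.2% with the replicate block and 8.88% as reported. With each array left out in turn, 1 to 4 integrins, 0 to 2 laminins, 5 to 40 partner genes and 247 to 4544 of all genes were higher dorsally, and 1 to 3 integrins, 1 to 5 laminins, 1 to 7 partner genes and 276 to 1593 of all genes ventrally. Such a fit takes its spread from the other side alone, and the lone array is assumed to vary like it. Without ventral replicate 1, 47.4% of all tested genes passed, and 4.05% and 4.07% without dorsal replicate 1 or 2. Except where a value above shows it, the cause was not tested. Arrays of the same number are not known to be paired, and their replicate gaps correlated at 0.14 over the tested genes. With the replicate block, 3 integrins (*Itga1* in addition) and 1 laminin were higher dorsally and 1 integrin and 2 laminins ventrally, with 16 and 3 partner genes and 790 and 678 of all genes, and no other call of a member changed.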

Other observations

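Genes whose symbols resemble those of the integrins but that are not chains of the receptor showed no difference past the test. *Itgb1bp1*, which encodes a protein that binds the tail of the common β chain and restrains its activation, had 8.23 and 8.10 dorsally and 8.23 and 7.53 ventrally (difference 0.28, adjusted p = 0.486 from limma). *Itgb1bp2*, the gene of melusin, a protein of striated muscle, had 4.68 and 4.91 dorsally and 5.21 and 5.29 ventrally (difference -0.46, adjusted p = 0.119 from limma), with no overlap between the sides. *Itgb3bp*, which encodes a protein of the centromere, differed by 0.05, and *Itgbl1*, the gene of a secreted protein with integrin-like repeats, had values of 3.54 to 3.599 and was not tested.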
